A study of Mus musculus with 12 samples.

Results

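The 10 genes described here are transcripts that neutrophils make in quantity: S100a8, S100a9, Lcn2, Mmp9, Csf3r, Cxcr2, Retnlg, G0s2, Trem1 and Clec4d. They were taken by symbol from a table of 25116 genes counted in 12 mouse tumours, and all 10 symbols were found. They had been chosen because their levels were lower in induced than in control tumours, with high values in control 1 and control 2, so the difference between the groups is given below as a description, with no test. Of the 10, 9 passed the filter on low counts that left 15199 genes for testing, and Retnlg did not. Cxcr2 and G0s2 had so few counts that they no longer passed once induced 4 was left out.

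The tumours were allografts of E0771, a murine line used as a model of triple-negative breast cancer, implanted in the mammary fat of syngeneic C57BL/6J mice and collected on day 22. All hosts were Tie2CreER;ERKi: they carried a tamoxifen-activated recombinase under the Tie2 promoter and an endorepellin knock-in gene that recombination switches on. Induced tumours (n = 7) came from hosts given tamoxifen before the tumour cells, and control tumours (n = 5) from hosts of the same genotype given a control injection, whose composition the labels do not state. Tamoxifen and the recombined gene came together in the induced group, so their effects cannot be told apart. Tie2 is an endothelial promoter that is also active in some blood-forming and monocytic cells. The labels do not say whether each tumour came from its own mouse, and the p-values therefore measure the spread between these samples. The study asked what endothelial endorepellin does to the tumour transcriptome.

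Neutrophils are short-lived white blood cells that enter inflamed tissue and tumours. G-CSF drives their production through its receptor Csf3r, and chemokines such as Cxcl1 and Cxcl2 draw them in through Cxcr2. They carry preformed granules and abundant cytosolic S100 proteins, and in tumours they are known to remodel matrix and to act on T cells. In bulk tissue, fewer neutrophils and less RNA per neutrophil cannot be told apart. Several of the 10 are made by other cells too: Lcn2 by epithelium, Mmp9 and Clec4d by macrophages and monocytes, and G0s2 by fat cells.

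Total counts were 18993192 to 28372821 per tumour. The first principal component of log2 CPM, the counts scaled to library size, held 45.7% of the variance and set control 1, control 2, induced 3 and induced 4, at 42.1 to 73.2, apart from the other tumours, at -40.3 to -4.50. The epithelial markers Krt8 and Epcam were low in both groups, Krt8 at 1.33 ± 0.477 CPM in induced and 1.54 ± 0.451 CPM in control tumours and Epcam at 0.739 ± 0.327 CPM in induced and 0.589 ± 0.515 CPM in control tumours (SD, n = 7 and n = 5). Hspg2, the gene of perlecan, whose C-terminal part is endorepellin, was at 419 to 698.1 CPM in induced and 466.6 to 658 CPM in control tumours, and the sources used here do not say whether its counts include the knock-in transcript. In edgeR's quasi-likelihood test of induced against control, 0 of 15199 genes had an adjusted p under 0.05, which is 0.0%, with 324 genes at an unadjusted p under 0.05. DESeq2 also gave 0 genes, with 607 at an unadjusted p under 0.05.

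The promoters of 5 of these genes are shown because their transcripts are the ones the results turn on: the neighbouring pair S100a8 and S100a9, Lcn2 as a secreted product, Cxcr2 as the chemokine receptor, and Clec4d as the gene whose direction was not stable. Each line runs 5′ to 3′ on the strand of the gene, from 250 bases before to 50 bases after the annotated start (RefSeq, GRCm38.p6). Capitals mark a match to the PU.1 core GAGGAA or the C/EBP half-site TTGCNNAA on either strand, or to the TATA box TATAAA on the strand of the gene. PU.1 and C/EBP proteins are transcription factors of the granulocyte lineage.
S100a8, chr3:90668821-90669120, plus strand: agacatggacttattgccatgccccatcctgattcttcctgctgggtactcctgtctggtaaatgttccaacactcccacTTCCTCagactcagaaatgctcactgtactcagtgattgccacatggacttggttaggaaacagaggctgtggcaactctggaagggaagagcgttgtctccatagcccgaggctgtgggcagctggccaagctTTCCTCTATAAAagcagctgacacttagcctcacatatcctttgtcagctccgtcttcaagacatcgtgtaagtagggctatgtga
S100a9, chr3:90695672-90695971, minus strand: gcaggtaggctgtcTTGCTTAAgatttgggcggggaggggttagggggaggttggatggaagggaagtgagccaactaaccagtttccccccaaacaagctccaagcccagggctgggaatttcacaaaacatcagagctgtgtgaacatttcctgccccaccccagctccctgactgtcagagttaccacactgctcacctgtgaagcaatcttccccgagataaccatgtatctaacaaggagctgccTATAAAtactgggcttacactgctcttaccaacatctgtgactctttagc
Lcn2, chr2:32387690-32387989, minus strand: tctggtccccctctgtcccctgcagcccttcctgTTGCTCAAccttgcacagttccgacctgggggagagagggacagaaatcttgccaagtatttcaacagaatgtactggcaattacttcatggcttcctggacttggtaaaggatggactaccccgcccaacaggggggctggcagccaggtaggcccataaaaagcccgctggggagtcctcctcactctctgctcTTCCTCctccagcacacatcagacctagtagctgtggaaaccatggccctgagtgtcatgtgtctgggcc
Cxcr2, chr1:74153744-74154043, plus strand: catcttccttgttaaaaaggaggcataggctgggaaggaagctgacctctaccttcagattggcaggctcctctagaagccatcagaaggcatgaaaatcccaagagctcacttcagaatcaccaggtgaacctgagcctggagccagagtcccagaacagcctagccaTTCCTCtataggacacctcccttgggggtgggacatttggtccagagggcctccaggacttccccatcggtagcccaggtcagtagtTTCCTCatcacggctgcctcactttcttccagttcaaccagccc
Clec4d, chr6:123261857-123262156, plus strand: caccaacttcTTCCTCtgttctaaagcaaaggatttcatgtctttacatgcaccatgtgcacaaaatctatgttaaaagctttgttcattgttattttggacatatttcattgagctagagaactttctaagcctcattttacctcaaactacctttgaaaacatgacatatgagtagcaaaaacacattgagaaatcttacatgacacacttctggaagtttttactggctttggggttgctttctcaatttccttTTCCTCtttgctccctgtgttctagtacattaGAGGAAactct

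Promoter sequence was at hand for 9 of the 10 genes, with no entry for Mmp9. The PU.1 core was found in 6 of these 9, namely S100a8, Lcn2, Csf3r, Cxcr2, Trem1 and Clec4d, and in 28.3% of 32851 mouse promoters of the same length. In S100a8 the run TTCCTCTATAAA joins a PU.1 core on the opposite strand, 36 bases before the start, to a TATA box 30 bases before it. The C/EBP half-site was found in S100a9, Lcn2 and Retnlg, 3 of 9, and in 10.8% of all promoters. The TATA box was found in S100a8 and S100a9, 2 of 9, and in 8.32% of all. In S100a9 the match begins at the annotated start itself and not upstream of it. G0s2 held none of the 3. These matches describe the letters in these windows and show no binding.

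S100a8 and S100a9 encode calcium-binding proteins that pair as calprotectin, the most abundant cytosolic protein complex of neutrophils. Their starts lie 26743 bases apart, S100a8 at chromosome 3, 90668978 to 90670035, plus strand, and S100a9 at 90692632 to 90695721, minus strand (GRCm38), with 694 and 522 exonic bases. S100a8 ranged from 1.595 CPM in induced 2 to 6.85 CPM in induced 1, with a median of 2.98 CPM over induced tumours, against 7.23, 44.2, 1.46, 9.24 and 9.84 CPM in control 1 to control 5. Thus 4 of 5 control tumours lay above every induced tumour and control 3 lay below them all. The log2 fold change, induced minus control, was -1.95 (SE 0.61).

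S100a9 followed the same order of groups. It ranged from 1.80 CPM in induced 2 to 7.00 CPM in induced 4, with a median of 2.45 CPM over induced tumours, against 12.1, 47.5, 1.37, 7.88 and 10.1 CPM in control 1 to control 5. Again all control tumours except control 3 lay above the induced range, and control 2 was highest. Its log2 fold change was -2.25 (SE 0.63). The ratio of S100a8 to S100a9 counts was 0.821 to 1.40 in induced tumours and 0.599 to 1.17 in control tumours, so the 2 subunits were present in similar counts in most tumours. The lowest ratio, 0.599, was that of control 1.

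**Figure D1:**
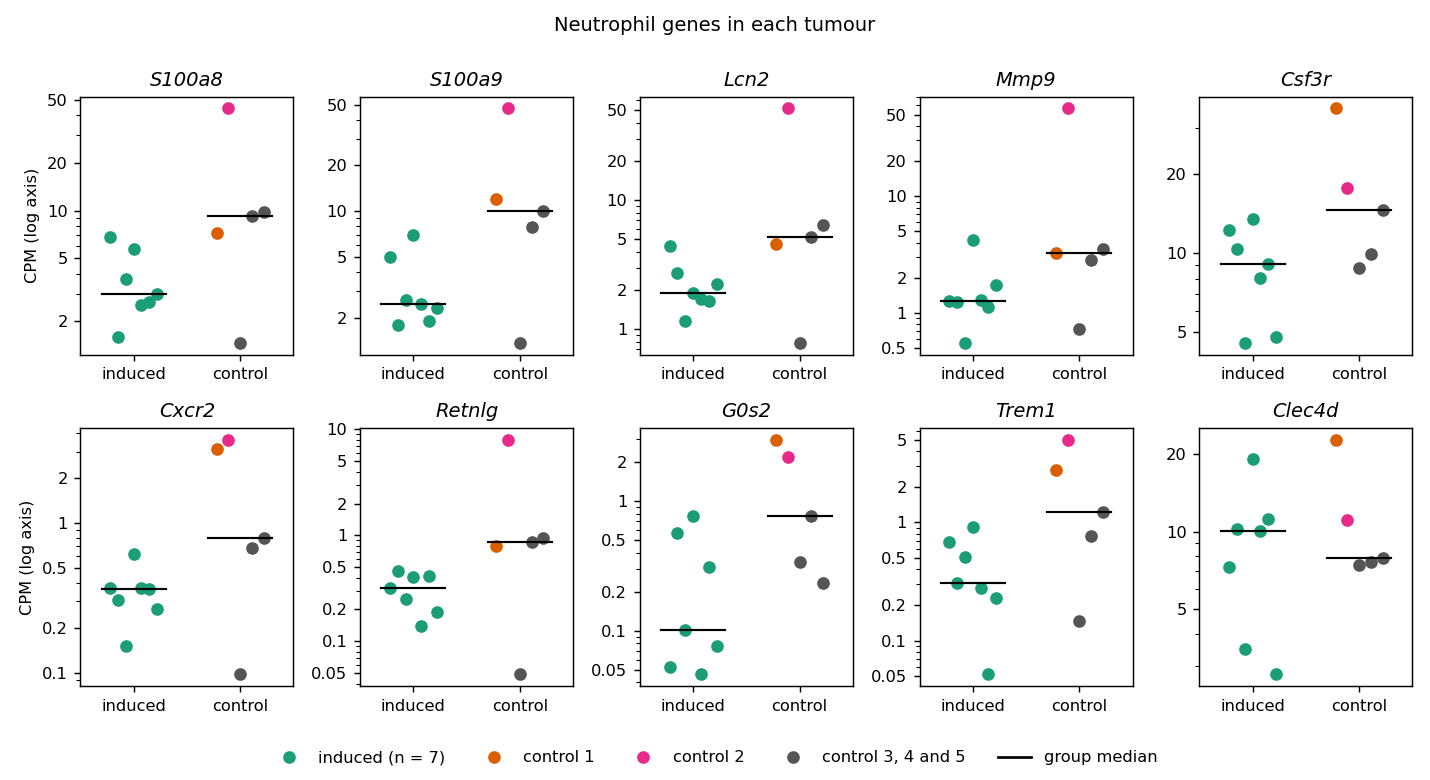
Level of each of the 10 genes in each tumour, in CPM on a log axis, induced tumours on the left and control tumours on the right, with black bars at the group medians. Control 2 is the highest tumour in 7 panels and control 1 in 3, and control 3 is the lowest of all in 5.

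Lcn2, Mmp9 and Retnlg are secreted products. Lcn2 encodes lipocalin 2, which withholds iron from bacteria by binding their siderophores (chromosome 2, 32384633 to 32388252, minus strand). It ranged from 1.16 CPM in induced 3 to 4.43 CPM in induced 1, with a median of 1.92 CPM over induced tumours, against 4.60, 51.7, 0.781, 5.21 and 6.403 CPM in control 1 to control 5. Control 2 stood far above all others, and control 3 was again the lowest tumour. The log2 fold change was -2.60 (SE 0.74).

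Mmp9 encodes gelatinase B, a protease of tertiary granules (chromosome 2, 164940780 to 164955850, plus strand). It ranged from 0.556 CPM in induced 3 to 4.24 CPM in induced 4, with a median of 1.27 CPM over induced tumours, against 3.29, 56.4, 0.732, 2.85 and 3.53 CPM in control 1 to control 5. Only control 2 lay above induced 4, and the log2 fold change of -3.01 (SE 0.89) was the largest of the 9. Without control 2 it was -0.67.

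Retnlg encodes a resistin-like protein of bone marrow and neutrophils (chromosome 16, 48872621 to 48874496, plus strand). Its counts were 3 to 11 in induced tumours, at 0.139 CPM in induced 5 to 0.463 CPM in induced 2 with a median of 0.316 CPM, against 0.795, 7.98, 0.0488, 0.860 and 0.942 CPM in control 1 to control 5. All control tumours except control 3 lay above the induced range. A fit with no filter on low counts gave a log2 fold change of -2.78.

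The receptors divided into a pair with high counts and a pair with few. Csf3r, the G-CSF receptor (chromosome 4, 126024550 to 126044440, plus strand), ranged from 4.55 CPM in induced 3 to 13.5 CPM in induced 4, with a median of 9.09 CPM over induced tumours, against 35.8, 17.7, 8.79, 9.96 and 14.7 CPM in control 1 to control 5. Here control 1, not control 2, was highest, control 3 and control 4 lay inside the induced range, and the log2 fold change was -0.96 (SE 0.36). Clec4d, a C-type lectin receptor for fungal and mycobacterial glycolipids (chromosome 6, 123262111 to 123275265, plus strand), ranged from 2.78 CPM in induced 7 to 19.2 CPM in induced 4, with a median of 10.0 CPM over induced tumours, against 22.7, 11.1, 7.42, 7.61 and 7.86 CPM in control 1 to control 5. The induced median lay above 3 of the 5 control tumours, and the log2 fold change of -0.31 (SE 0.44) was 0.10 without control 1.

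Cxcr2, the receptor for the neutrophil-attracting chemokines (chromosome 1, 74153989 to 74161246, plus strand), had 3 to 17 counts in induced tumours. It ranged from 0.152 CPM in induced 3 to 0.627 CPM in induced 4, with a median of 0.362 CPM over induced tumours, against 3.15, 3.60, 0.0976, 0.679 and 0.800 CPM in control 1 to control 5. Control 1 and control 2 were alike and far above the rest, and control 3 was lowest. Trem1, an activating receptor that amplifies inflammatory signals (chromosome 17, 48232768 to 48246924, plus strand), ranged from 0.0517 CPM in induced 6, which is 1 count, to 0.922 CPM in induced 4, with a median of 0.309 CPM over induced tumours, against 2.80, 5.00, 0.146, 0.770 and 1.22 CPM in control 1 to control 5. Their log2 fold changes were -2.23 (SE 0.63) for Cxcr2 and -2.21 (SE 0.70) for Trem1.

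G0s2, an inhibitor of the triglyceride lipase ATGL (chromosome 1, 193272161 to 193273217, minus strand), had 1 to 21 counts in induced tumours. It ranged from 0.0462 CPM in induced 5 to 0.774 CPM in induced 4, with a median of 0.101 CPM over induced tumours, against 2.97, 2.20, 0.342, 0.770 and 0.235 CPM in control 1 to control 5. All 5 control tumours lay above the induced median, and 3 of them lay below induced 4. The log2 fold change was -2.22 (SE 0.76). The adipocyte markers summed to 39.9 to 127.7 CPM in induced tumours and 33.7 to 179.1 CPM in control tumours, with control 1 highest, and its part in the G0s2 values was not tested.

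Set against all genes, the 9 tested members had a median log2 fold change of -2.22, and all 15199 genes a median of -0.00083. A log2 fold change below 0 was found for 9 of 9 members and for 50.2% of all genes. A log2 fold change of -1 or below was found for 7 of 9 and for 1.57% of all, and one of -2 or below for 6 of 9 and for 0.158% of all. The groups did not overlap, with all induced tumours below all control tumours, for 0 of 9 members and for 0.0395% of all genes. At least 4 of the 5 control tumours lay above every induced tumour for 4 of 9, namely S100a8, S100a9, Lcn2 and Cxcr2, and for 0.382% of all genes. Because the members were picked on this contrast, these shares describe the choice and support nothing.

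Control 1 and control 2 were the 2 highest of the 12 tumours for 5 of 9 members, namely S100a9, Csf3r, Cxcr2, G0s2 and Trem1, and for 3.28% of all genes, a pattern that the choice of the genes had used. The size of the excess differed between the 2 tumours from gene to gene. Mmp9 was 17.2 times as high in control 2 as in control 1 (95% exact interval of the ratio 14 to 21.3), Lcn2 11.2 times (9.40 to 13.5), Retnlg 10 times (6.52 to 16.1), S100a8 6.11 times (5.28 to 7.11) and S100a9 3.93 times (3.49 to 4.43). By contrast Csf3r was 0.496 times as high in control 2 as in control 1 (0.445 to 0.552) and Clec4d 0.489 times (0.427 to 0.560). Cxcr2, at 1.14 times (0.855 to 1.53), and G0s2, at 0.741 times (0.527 to 1.04), had intervals that include 1, and Trem1 was at 1.79 times (1.35 to 2.37). These intervals cover counting error between 2 single tumours only, and reads without molecular identifiers are not independent molecules.

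**Figure D2:**
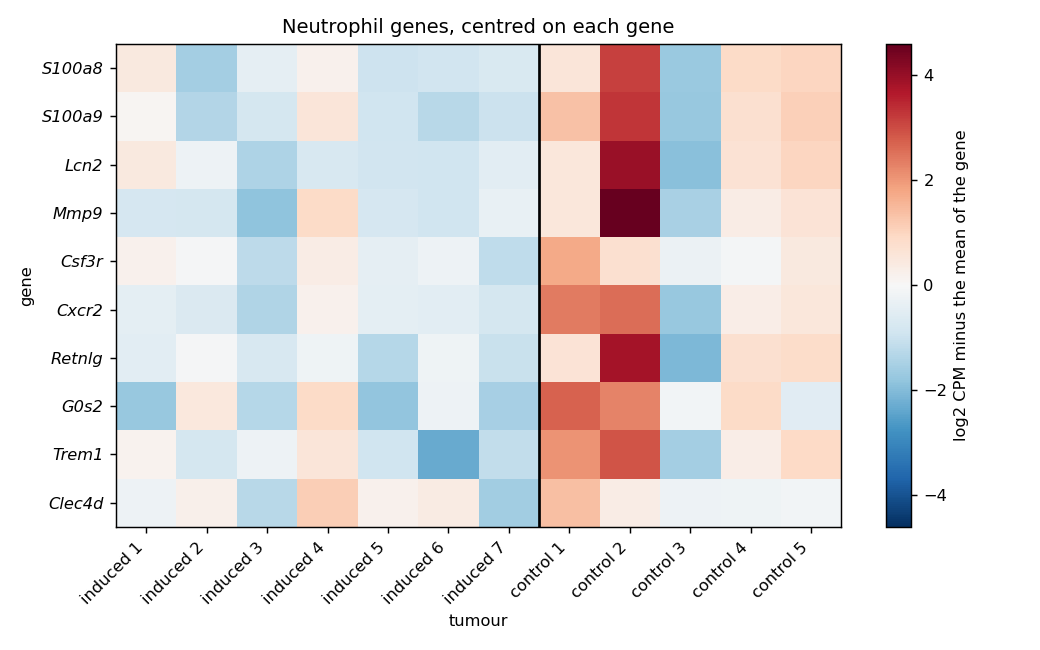
Log2 CPM of each gene minus its mean over the 12 tumours, with induced tumours left of the black line and control tumours right of it. The darkest red cells are Mmp9, Lcn2 and Retnlg in control 2, while G0s2, Cxcr2 and Trem1 are red in both control 1 and control 2.

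The fold changes therefore moved in different ways when single control tumours were left out. Without control 2 the median over the 9 members was -0.97, with Lcn2 at -0.93 and S100a8 at -0.91, while Csf3r at -0.97 and G0s2 at -1.97 kept most of their size. Without control 1 the median was -2.07, and Csf3r was at -0.53. Without both, 8 of 9 members were still below 0, from -0.97 for S100a9 to -0.33 for Csf3r, Clec4d was at 0.26, and the median was -0.68. The median of all genes was then 0.0017. In the 4 tumours that stood apart, 2 induced and 2 control, the median over 9 members was -2.50, and without these 4 tumours it was -0.83 over the 7 members that passed the filter.

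**Figure D3:**
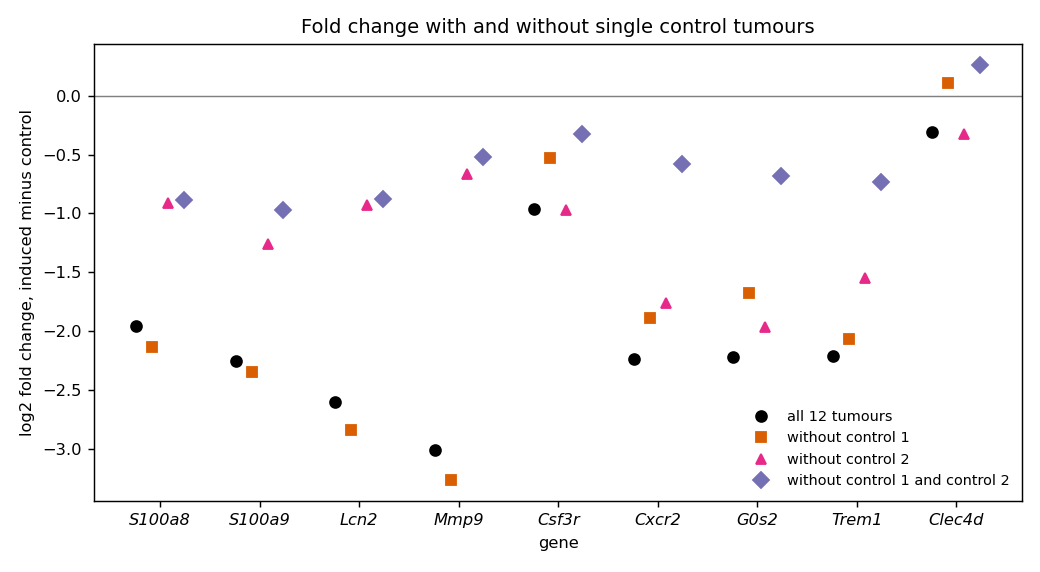
Log2 fold change, induced minus control, of the 9 tested genes with all 12 tumours and with control 1, control 2 or both left out. The diamonds, without both, lie between -0.97 and -0.33 for 8 genes and at 0.26 for Clec4d.

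The summed level of the 10 genes was 30.4 ± 12.9 CPM in induced tumours (SD, n = 7) and 93.1 ± 90.3 CPM in control tumours (SD, n = 5). Among induced tumours the sum ran from 17.1 CPM in induced 3 to 54.4 CPM in induced 4, with a median of 28.8 CPM, against 95.4, 247.4, 21.2, 45.8 and 55.7 CPM in control 1 to control 5. Induced 4 was thus level with control 5 and above control 3 and control 4. Induced 4 was the highest induced tumour for 7 of the 10 genes, and induced 3 the lowest for 4.

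Leukocyte content, read from the 6 leukocyte genes Ptprc, Coro1a, Laptm5, Tyrobp, Fcer1g and Cd53, differed between the same tumours. Tyrobp and Fcer1g are not made by all leukocytes. These 6 genes summed to 116.6 to 384.6 CPM in induced tumours, with a median of 254.7 CPM, against 854.2, 283.7, 216.3, 257 and 277.7 CPM in control 1 to control 5. Control 1 therefore held far more leukocyte RNA than any other tumour, whereas control 2 did not. Scaled to these genes, a step added after the data were seen, the 10 neutrophil genes stood at 10.5 to 15.1 CPM per 100 CPM of leukocyte genes in induced tumours, against 11.2, 87.2, 9.80, 17.8 and 20.04 in control 1 to control 5. On that scale control 1 lay inside the induced range, control 3 below it, and control 2, control 4 and control 5 above it. Macrophage markers were also highest in control 1, at 1450 CPM, and their part in the scale was not tested.

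**Figure D4:**
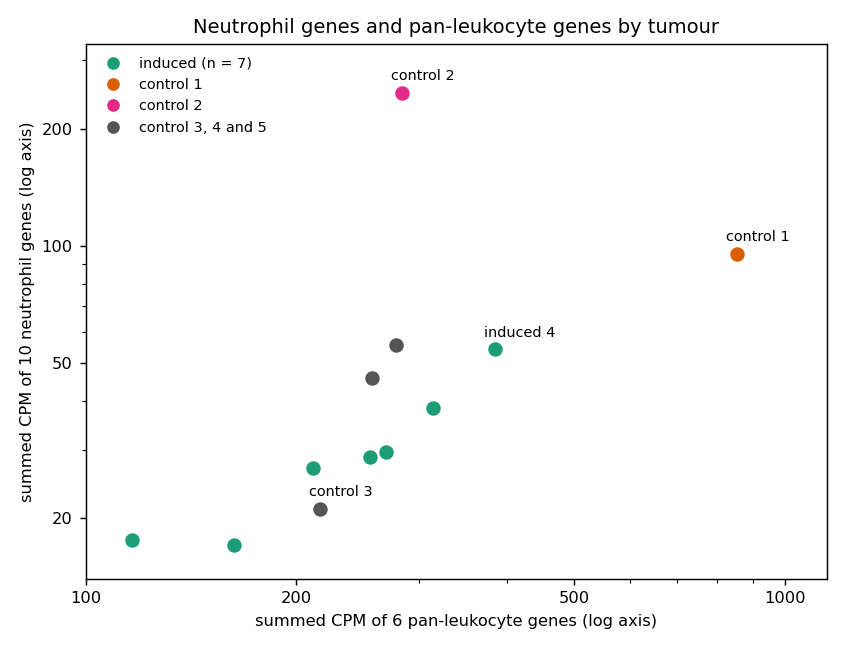
Summed CPM of the 10 neutrophil genes against summed CPM of 6 leukocyte genes (labelled pan-leukocyte), 1 point per tumour, both axes logarithmic. Control 1 lies far to the right with 854.2 CPM of leukocyte genes, and control 2 lies far above the other tumours with 247.4 CPM of neutrophil genes at 283.7 CPM of leukocyte genes.

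By role, the cytosolic, secreted and granule products differed from the summed receptors on that scale, in a comparison that was not tested. S100a8, S100a9, Lcn2, Mmp9 and Retnlg together were at 4.82 ± 1.81 CPM per 100 CPM of leukocyte genes in induced tumours (SD, n = 7) and 19.95 ± 30.1 in control tumours (SD, n = 5), with 3.28, 73.2, 2.03, 10.1 and 11.1 in control 1 to control 5. The 4 receptors Csf3r, Cxcr2, Trem1 and Clec4d together were at 7.51 ± 1.31 in induced tumours (SD, n = 7) and 8.92 ± 2.47 in control tumours (SD, n = 5), with 7.54, 13.2, 7.61, 7.40 and 8.85 in control 1 to control 5. For the receptors, 4 of 5 control tumours lay between 7.40 and 8.85, within the induced range of 5.34 to 8.91, and control 2 lay above it. The receptor sum consists mostly of Csf3r and Clec4d. Cxcr2 and Trem1 had log2 fold changes of -2.23 and -2.21, near the -2.25 of S100a9, so the contrast does not hold for every receptor. The monocyte list Ly6c2, Ccr2, Plac8 and F13a1 was also high where Csf3r and Clec4d were, at 329.2 CPM in induced 4 and 445.1 CPM in control 1. It was at 39.8 to 106.1 CPM in the other induced and 82.6 to 150.7 CPM in the other control tumours. Its part in these values was not tested.

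The levels also differed widely between the genes. Per kilobase of exon, the mean level in induced tumours was 6.33 ± 3.75 CPM for S100a9, 5.74 ± 3.46 CPM for Clec4d and 5.36 ± 2.73 CPM for S100a8 (SD, n = 7), which lie within each other's spread. Csf3r followed at 2.48 ± 0.956 CPM per kilobase, then Lcn2 at 0.863 ± 0.409. Retnlg, Mmp9 and G0s2 lay at 0.525 ± 0.207, 0.463 ± 0.339 and 0.316 ± 0.334 CPM per kilobase, again within their spread. Trem1 at 0.142 ± 0.0996 and Cxcr2 at 0.115 ± 0.0474 CPM per kilobase were lowest.

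Whether the members also varied together inside the induced group is a question the choice of the genes had not used. Over the 7 induced tumours, the 36 pairs of the 9 tested members had a median Spearman correlation of 0.286, from -0.143 for S100a8 with Clec4d to 0.857 for S100a8 with S100a9. Of the 36 pairs, 29 lay above 0 (80.6%), against 49.9% of all pairs of tested genes, whose median was 0.0. The 36 pairs reuse the same 9 genes and 7 tumours and are not independent. These shares are therefore a description and no test of whether the members varied together. Cxcr2 and G0s2, which enter many of the pairs, no longer passed the filter without induced 4, the highest induced tumour for both. No pair passed after Benjamini-Hochberg adjustment over the 36 pairs (exact permutation test, two-sided, smallest adjusted p = 0.563), and 2 pairs had an unadjusted p under 0.05. The smallest p that 7 tumours allow is 0.000397, which needs full agreement or full reversal of the ranks. A single pair could pass the adjustment only at that p, so the lack of passing pairs says little.

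The pair with the highest correlation was S100a8 and S100a9. Their Spearman correlation of 0.857 had an exact permutation p of 0.0238 (adjusted p = 0.563), and their Pearson correlation was 0.901 with an exact permutation p of 0.00655 (adjusted p = 0.118). Without the 2 tumours farthest from the S100a8 median, the Pearson correlation was 0.813. Csf3r and Cxcr2, the G-CSF and chemokine receptors, had 0.750 (Pearson 0.841), and their Pearson correlation was 0.625 without the 2 tumours farthest from the Csf3r median. Cxcr2 had 3 to 17 counts in induced tumours and passed the filter largely through control tumours, where it was high. The values of this pair are therefore a description, with no p given. Csf3r, Cxcr2 and Trem1 were correlated above 0 with all 8 other members, and G0s2 with 4 of 8. The median over pairs depended on induced 4, without which it was 0.0286. Cxcr2, G0s2 and Trem1 had 25 or fewer counts in every induced tumour, which limits the precision of their ranks.

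**Figure D5:**
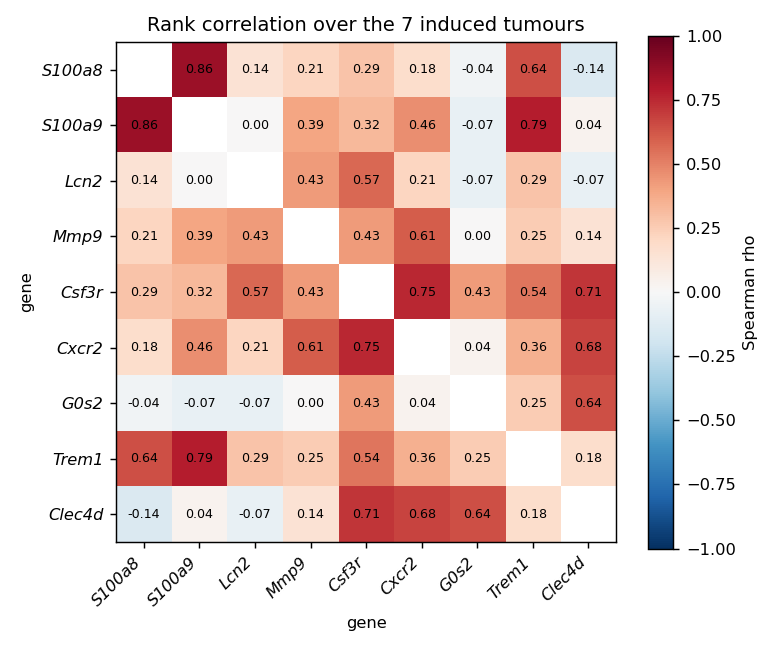
Spearman correlation of log2 CPM for each pair of the 9 tested genes over the 7 induced tumours, from -1 in blue to 1 in red. S100a8 with S100a9 reaches 0.86, and G0s2 with S100a8, S100a9, Lcn2, Mmp9 and Cxcr2 lies near 0.

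Beyond the 10 members, 67 genes on 6 lists of the neutrophil programme were examined, of which 63 were in the table and 45 were tested. Of these, 39 had a log2 fold change below 0 and 6 above, against 50.2% of all genes below 0, their median was -0.67, and 0 of 45 passed the test over all genes, as did 0.0% of all genes. Control 1 and control 2 were the 2 highest tumours for 14 of the 45 and for 3.28% of all genes, the pattern on which the members had been chosen. The lists overlap with macrophage and monocyte genes, and the groups are the same as those the members were chosen on. Several lists of other cell types were also lower in induced tumours. Their median log2 fold changes were -1.37 for B cells, -1.19 for mast cells, -1.01 for fibroblasts, -0.66 for adipocytes and -0.65 for monocytes. Leukocyte genes were at -0.63 and macrophage genes at -0.59. Skeletal muscle (-0.14), endothelium (-0.06), tumour epithelium (0.06) and erythrocytes (0.32) were not as low. A low median was thus not particular to the neutrophil lists.

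The surface receptor list had 12 of 13 tested genes below 0, with a median log2 fold change of -0.92. Its most abundant genes were Itgb2, the beta-2 integrin chain, at 39.2 ± 19.8 CPM in induced and 65.4 ± 51.4 CPM in control tumours, Itgam, the alpha chain of Mac-1, at 21.5 ± 11.6 CPM in induced and 30.6 ± 22.3 CPM in control tumours, and the Fc receptors Fcgr3, at 24.3 ± 14.9 CPM in induced and 30.4 ± 26.0 CPM in control tumours, and Fcgr4, at 16.3 ± 5.20 CPM in induced and 33.7 ± 30.6 CPM in control tumours (SD, n = 7 and n = 5). These are shared with macrophages, and all 4 were highest in control 1. Ly6g, the surface protein that defines mouse neutrophils and which was singled out after its values were seen, did not follow the members. It was at 1.10 ± 0.951 CPM in induced and 1.07 ± 0.328 CPM in control tumours, with 1.04 CPM in control 1, 1.23 CPM in control 2 and the highest value, 2.89 CPM, in induced 6, and its log2 fold change was 0.04 (SE 0.54). Cxcr1 and Cd177 of this list did not pass the filter and were both highest in control 2, at 0.245 and 2.07 CPM. In control 1 Cxcr1 was at 0 CPM and Cd177 at 1.56 CPM. Induced tumours were at 0 to 0.155 CPM for Cxcr1 and 0.0381 to 0.479 CPM for Cd177.

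Of the 12 granule genes, Mpo, Elane, Ctsg, Camp, Ngp and Mmp25 did not pass the filter. Of the 6 granule genes tested, 4 were below 0, with a median log2 fold change of -0.31. Slpi, an inhibitor of neutrophil elastase, was at 10.4 ± 2.93 CPM in induced and 16.3 ± 5.99 CPM in control tumours, and Hp, haptoglobin, at 11.8 ± 11.7 CPM in induced and 19.3 ± 12.1 CPM in control tumours. Mmp8, the neutrophil collagenase, was at 3.57 ± 2.00 CPM in induced and 4.58 ± 3.57 CPM in control tumours, with 10.9 CPM in control 2. Prtn3, proteinase 3, was at 7.50 ± 2.03 CPM in induced and 6.398 ± 1.70 CPM in control tumours (SD, n = 7 and n = 5).

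Among cytoplasmic and secreted products, 8 of 9 tested genes were below 0, with a median log2 fold change of -0.69. Il1f9, Stfa1, Stfa2 and Stfa2l1 did not pass the filter and were each highest in control 2, at 2.73, 0.315, 1.05 and 1.82 CPM. Their highest values in induced tumours were 0.295, 0.154, 0.114 and 0.627 CPM. Acod1, the itaconate-producing enzyme, was at 15.2 ± 4.85 CPM in induced and 24.4 ± 12.5 CPM in control tumours, and Mxd1, a Myc antagonist of maturing granulocytes, at 25.2 ± 6.47 CPM in induced and 38.6 ± 19.1 CPM in control tumours. Wfdc17, at 17.0 ± 12.5 CPM in induced and 19.7 ± 14.2 CPM in control tumours, and Msrb1, a methionine sulfoxide reductase at 42.5 ± 6.17 CPM in induced and 41.3 ± 2.62 CPM in control tumours, differed by less than their spread. All 6 NADPH oxidase genes were below 0, with a median of -0.70, among them Cybb, the catalytic subunit, at 41.2 ± 20.8 CPM in induced and 60.9 ± 40.5 CPM in control tumours, and Rac2, its GTPase, at 14.5 ± 5.64 CPM in induced and 32.7 ± 28.9 CPM in control tumours (SD, n = 7 and n = 5). Control 1 was the highest tumour for both.

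Among the ligands for neutrophil receptors, 6 of 7 tested genes were below 0, with a median log2 fold change of -0.46. Cxcl2, a ligand of Cxcr2, was at 3.17 ± 1.48 CPM in induced and 6.87 ± 6.22 CPM in control tumours, with 9.68 CPM in control 1 and 16.6 CPM in control 2. Tnf, at 10.6 ± 2.82 CPM in induced and 13.3 ± 3.57 CPM in control tumours, and Il6, at 1.56 ± 0.333 CPM in induced and 2.01 ± 0.815 CPM in control tumours, are cytokines that prime neutrophils. Cxcl12, which retains them in bone marrow, was at 8.98 ± 4.99 CPM in induced and 12.9 ± 14.9 CPM in control tumours (SD, n = 7 and n = 5). Csf3, which encodes G-CSF and was also singled out after its values were seen, did not pass the filter and was at 2.45 CPM in control 2, against 0 to 0.620 CPM in induced tumours and 0 to 0.311 CPM in the other control tumours.

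Of the 4 granulocyte transcription factors tested, 3 were below 0, with a median log2 fold change of -0.34. Cebpb was at 222.2 ± 56.0 CPM in induced and 219.7 ± 57.5 CPM in control tumours, Spi1, which encodes PU.1, at 21.5 ± 7.91 CPM in induced and 35.4 ± 24.3 CPM in control tumours, Cebpd at 13.1 ± 2.86 CPM in induced and 16.2 ± 3.49 CPM in control tumours, and Cebpa at 6.04 ± 4.42 CPM in induced and 7.83 ± 8.63 CPM in control tumours (SD, n = 7 and n = 5). Cebpe and Gfi1, which act late and early in granulocyte development, did not pass the filter.

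Other cell types did not share the height of control 2. Macrophage markers summed to 158.7 to 785 CPM in induced tumours, highest in induced 4, and to 218.4 to 1450 CPM in control tumours, highest in control 1, with 359.3 CPM in control 2. Fibroblast markers summed to 541.2 to 1988 CPM in induced and 660 to 3198 CPM in control tumours, mast cell markers to 6.07 to 21.02 CPM in induced and 4.66 to 101.8 CPM in control tumours, and B cell markers to 3.81 to 13.3 CPM in induced and 5.21 to 39.5 CPM in control tumours, each highest in control 1 among the controls. Control 2 held 1200 CPM of fibroblast, 7.31 CPM of mast cell and 5.21 CPM of B cell markers. Erythrocyte genes, a sign of blood in the piece, summed to 22.1 to 466.6 CPM in induced and 74.9 to 156.1 CPM in control tumours, with 118.7 CPM in control 1 and 131.2 CPM in control 2.

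Markers of further cell types and tissues gave the following values, and their part in the levels of the members was not tested. Skin keratinocyte markers, none of which passed the filter, summed to 0.148 to 2.73 CPM in induced and 0.140 to 2.42 CPM in control tumours. Control 2 was at 0.140 CPM. T cell markers summed to 1.87 to 12.5 CPM in induced and 2.83 to 27.3 CPM in control tumours, with 2.83 CPM in control 2. Eosinophil markers were at 0.155 to 0.553 CPM in induced and 0.0942 to 3.18 CPM in control tumours, with 0.350 CPM in control 2. Endothelial markers were at 80.4 to 114.9 CPM in induced and 77.1 to 122.8 CPM in control tumours, tumour epithelial markers at 2.27 to 4.58 CPM in induced and 1.68 to 6.64 CPM in control tumours, and skeletal muscle markers at 12.1 to 383.5 CPM in induced and 4.74 to 410.1 CPM in control tumours.

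The genes whose pattern over the 12 tumours was most like that of the members were sought among 12862 other tested genes. Genes with predicted names (Gm with digits, Rik) or with an ID only were left out. By Pearson correlation of log2 CPM with the mean centred log2 CPM of the 9 tested members, the first 10 were Zc3h12a, Ifitm1, Saa3, Mcemp1, Chil1, Ikbke, Ints3, Clec4e, Cxcl2 and Nlrp3, with correlations from 0.928 to 0.867. They were picked as the highest, so no p is given, and in all 10 control 1 and control 2 were the 2 highest tumours. Saa3, an acute-phase serum amyloid protein, was at 8.02 ± 4.95 CPM in induced and 23.3 ± 29.3 CPM in control tumours, with 21.4 CPM in control 1 and 74.3 CPM in control 2. Clec4e, a C-type lectin receptor next to Clec4d in function and in the genome, was at 8.70 ± 5.24 CPM in induced and 16.5 ± 11.1 CPM in control tumours, and Nlrp3, the sensor of an inflammasome, at 3.47 ± 1.73 CPM in induced and 5.71 ± 4.07 CPM in control tumours (SD, n = 7 and n = 5). Without control 2 the correlations of these 10 genes were 0.735 to 0.898, and within the 7 induced tumours they were 0.457 for Ifitm1 to 0.915 for Mcemp1. Both sets of tumours were part of the 12 on which the genes were picked, and control 1 stayed in the first. These values therefore describe the pick and are no separate check of it.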

How the data were processed

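RNA-seq columns were tied to the 12 tumours by the library names in the labels. Groups come from the sample titles and treatment label, because the growth and treatment text of the labels describes cultured mesenchymal cells and not tumours. Raw counts for each Ensembl gene are the values used, and the authors deposited them unnormalized, per the file headers. Not used here were the deposited rlog values on the log2 scale and the authors' own log2 fold changes, signed fold (a score), p-values and adjusted p-values. The build was GRCm38 (mm10), per the submitters' processing notes, whereas aligner, counting tool and strand setting were not given in the sources used here. GENCODE mouse release 21 supplied positions and exonic lengths, and none of the 10 genes shared exonic bases with another gene.

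Of 25116 genes, 15199 passed filterByExpr by group (minimum count 10). The fit was edgeR 4.0.16 (R 4.3.3), with TMM factors, the robust quasi-likelihood F test and Benjamini-Hochberg adjustment at 0.05, tested on simulated counts. The standard error is the size of the log2 fold change over the root of F. CPM use TMM factors, and log2 CPM a prior count of 2. Alternatives were DESeq2 size factors, no filter, DESeq2 1.42.0, a replicate block and leaving out tumours. Correlations were tested over all orders of the tumours. No 2 tumours of one group agreed within sampling noise. Total counts of 18993192 to 28372821 set the precision of low genes.

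The members, lists and tests were chosen with earlier results of these data known. Named are the 10 members, the most abundant genes of a list (up to 4), and the 10 genes most like the members. Ly6g, Csf3 and the granule, surface receptor and cytoplasmic genes that did not pass the filter were added after their values were seen.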

Additional observations from a re-analysis of the deposited data

Results flagged for a closer look

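In 60 groups of values, 1 for each of the 10 genes or 20 summed marker lists in induced or control tumours, the highest or lowest tumour was set against the rest by Dixon's criterion. The control values of the 10 genes had been used to choose them, so the 6 of these 10 groups in which a tumour stood apart describe that choice and are no test. In the other 50 groups, which share the same tumours and are not independent, 17 had a tumour that stood apart. The criterion's rate of about 1 in 20 holds for normally spread values, and CPM were used without logs. Many of the 17 were control 1, a tumour the choice of the genes had used. The 17 are therefore a description and are not set against chance. As a description, control 2 was far above the other control tumours for S100a8 (44.2 CPM, the others 1.46 to 9.84), S100a9 (47.5 CPM, the others 1.37 to 12.1), Lcn2 (51.7 CPM, the others 0.781 to 6.403), Mmp9 (56.4 CPM, the others 0.732 to 3.53) and Retnlg (7.98 CPM, the others 0.0488 to 0.942). Control 1 was far above the other control tumours for Clec4d (22.7 CPM, the others 7.42 to 11.1). Induced 4 stood apart among induced tumours for Mmp9 (4.24 CPM, the others 0.556 to 1.76).

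Control 1 stood apart among control tumours for the summed NADPH oxidase (482.6 CPM), leukocyte (854.2 CPM), macrophage (1450 CPM), monocyte (445.1 CPM), mast cell (101.8 CPM), T cell (27.3 CPM), fibroblast (3198 CPM) and adipocyte (179.1 CPM) lists. Control 4 stood apart for skeletal muscle (410.1 CPM). Among induced tumours, induced 4 stood apart for macrophages (785 CPM), monocytes (329.2 CPM), eosinophils (0.553 CPM) and skeletal muscle (383.5 CPM), induced 6 for T cells (12.5 CPM), induced 3 for skin keratinocytes (2.73 CPM) and induced 5 for erythrocytes (466.6 CPM).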

How the results depend on the processing

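The count of genes past the threshold was 0 under all 20 alternatives. The median log2 fold change of the tested members, -2.22, was -2.54 to -0.97 with 1 tumour left out, lowest without induced 4, where 7 members passed the filter, and nearest 0 without control 2, -0.68 without control 1 and control 2, and -0.83 without the 4 tumours that stood apart, a fit added after the data were seen. It was -2.23 with DESeq2 size factors, -2.22 with no filter and -2.25 with DESeq2. Whether replicate numbers pair the tumours is not settled. Deviations of same-numbered tumours had correlations of -0.531 to 0.21, and only induced 5 was most like the control of its own number. Such correlations cannot exclude a shared batch. With the replicate block the median was -1.38 over 10 tumours, against -2.05 in these 10 without the block. Of 175 recomputed fold changes of single members, 161 moved by less than the spread between tumours, 11 moved by more and 3 changed sign. These 3 were all of Clec4d, which was -0.60 to 0.10 with 1 tumour left out, above 0 only without control 1, and 0.26 without control 1 and control 2 and 0.11 without the 4 tumours. The median correlation between members within induced tumours was 0.0286 to 0.429 with 1 tumour left out, 0.349 by Pearson and 0.734 over all 12 tumours, where the difference between groups enters. The 1 to 25 counts of Cxcr2, Retnlg, G0s2 and Trem1 in induced tumours limit their precision. The causes were not tested.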
